A study of Mus musculus with 35 samples.

Results

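The expression of 10 genes of MHC class I and class II antigen presentation was followed in interscapular brown adipose tissue (iBAT) during cold exposure. The 10 genes were chosen by name from the 55421 genes of the count table, and each matched exactly 1 identifier. Class II was represented by H2-Aa, H2-Ab1, H2-Eb1, H2-DMa, Cd74 and Ciita (6 genes), and class I by B2m, H2-K1, H2-D1 and Tap1 (4 genes). iBAT came from 35 male C57BL/6J mice aged 9 to 10 weeks, 5 kept at room temperature (24 °C) and 5 each after 6 hours, 1, 2, 3, 4 or 5 days at 6 °C. The mice carried no transgene and received no drug. Each cold-exposed mouse was alone in its cage and had nothing to nest in, so housing and temperature cannot be told apart. Each library is 1 mouse, and all 6 durations were compared with the same 5 control mice.

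MHC class I molecules sit on nearly all nucleated cells. They display peptides that the proteasome cuts in the cytosol and that the TAP transporter carries into the endoplasmic reticulum, where a heavy chain (H2-K1 or H2-D1) pairs with beta-2 microglobulin (B2m). MHC class II molecules are made mainly by dendritic cells, macrophages and B cells. Their alpha and beta chains (H2-Aa with H2-Ab1) assemble on the invariant chain Cd74, H2-DM exchanges the last piece of Cd74 for an antigenic peptide in the endosome, and the coactivator CIITA drives the whole class II set. Interferon gamma raises both sets in many cell types. In adipose tissue, resident and recruited macrophages and dendritic cells are the usual class II cells.

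Levels are given in CPM, counts scaled to a common library size, with TMM factors that adjust for composition. The library kit reads only the 3′ end of each transcript, so the tests of CPM compared mice and not the levels of different genes. CPM values were also summed over gene lists, and the parts of such sums are shares of reads only. The libraries held 3846016 to 6047247 counts, and 1 count was worth 0.151 to 0.288 CPM. Mitochondrial genes took 33.6% to 46.2% of the counts. Ciita (318 counts over all 35 mice) and H2-DMa (335) rest on few reads in each mouse and Tap1 (1098) on more, while B2m had 79072. Brown adipocyte genes were abundant in all groups, with a summed level of 8 markers between 13866 and 25011 CPM. At the 6 durations in turn 1, 1, 1, 2, 2 and 3 of the 8 were higher than at room temperature. In the same order 1, 3, 2, 2, 2 and 1 were lower. Of all genes tested, 16.4% to 21.5% were called higher and 14.7% to 21% lower at these durations. In whole tissue, fewer cells of a type and less RNA per cell cannot be told apart.

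Of the 10 genes, 7 lie on chromosome 17, in the mouse MHC. On GRCm38 with the GENCODE M21 annotation, H2-K1 spans chr17:33996017-34000347 (minus strand), H2-DMa chr17:34119541-34139101 (plus), Tap1 chr17:34187553-34197225 (plus) and H2-Ab1 chr17:34257689-34269419 (plus). H2-Aa spans chr17:34282744-34287823 (minus), H2-Eb1 chr17:34305867-34316674 (plus) and H2-D1 chr17:35262730-35267499 (plus). B2m lies at chr2:122147686-122153083 and Ciita at chr16:10480059-10528418, both on the plus strand. Exons of H2-DMa share 360 bases with Brd2, those of Ciita 329 bases with Dexi and those of Tap1 212 bases with Psmb9, each on the opposite strand, and the strand setting of the counting is not given in the sources used here. None of the 325 windows of 76 bases in the last 400 bases of the longest coding transcript of each of the 10 genes was identical to another gene, including H2-K1, whose nearest relative H2-K2 was 89.1% identical over 368 bases.

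The promoters of 2 class II chain genes and of the 2 class I heavy chain genes show the sequence features by which the families are known, and are printed for that reason. RefSeq promoter windows (300 bases around the start site, most of them upstream, GRCm38.p6) were listed for 7 of the 10 genes. In the class II windows, capitals mark the X box core GCAAC and the Y box CTGATTGG. H2-Aa lies at chr17:34287774-34288073 (minus strand) and H2-Eb1 at chr17:34305617-34305916 (plus).
H2-Aa promoter: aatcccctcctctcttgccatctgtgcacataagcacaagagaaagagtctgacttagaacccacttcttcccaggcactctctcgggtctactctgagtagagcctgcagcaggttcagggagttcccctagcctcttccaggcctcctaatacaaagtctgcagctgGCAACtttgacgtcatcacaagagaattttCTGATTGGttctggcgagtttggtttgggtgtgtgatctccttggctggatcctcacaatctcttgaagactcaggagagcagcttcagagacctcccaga
H2-Eb1 promoter: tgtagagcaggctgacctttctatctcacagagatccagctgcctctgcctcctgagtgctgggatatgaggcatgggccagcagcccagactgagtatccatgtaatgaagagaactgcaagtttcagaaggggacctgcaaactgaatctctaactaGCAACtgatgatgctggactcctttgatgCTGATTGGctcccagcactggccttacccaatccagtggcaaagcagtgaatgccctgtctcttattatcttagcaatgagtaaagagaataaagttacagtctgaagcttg
In the class I windows, capitals mark GGGATTCCC, a kappa B type motif, GAANNGAAA, an interferon response type motif, and CCAAT, on either strand. H2-K1 lies at chr17:34000298-34000597 (minus strand, the first of 2 listed start sites) and H2-D1 at chr17:35262844-35263143 (plus).
H2-K1 promoter: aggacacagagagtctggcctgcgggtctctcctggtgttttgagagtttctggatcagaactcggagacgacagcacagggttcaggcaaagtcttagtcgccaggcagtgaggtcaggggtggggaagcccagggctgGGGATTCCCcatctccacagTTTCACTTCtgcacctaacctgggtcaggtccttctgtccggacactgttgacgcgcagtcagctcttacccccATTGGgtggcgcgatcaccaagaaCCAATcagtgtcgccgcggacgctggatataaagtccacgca
H2-D1 promoter: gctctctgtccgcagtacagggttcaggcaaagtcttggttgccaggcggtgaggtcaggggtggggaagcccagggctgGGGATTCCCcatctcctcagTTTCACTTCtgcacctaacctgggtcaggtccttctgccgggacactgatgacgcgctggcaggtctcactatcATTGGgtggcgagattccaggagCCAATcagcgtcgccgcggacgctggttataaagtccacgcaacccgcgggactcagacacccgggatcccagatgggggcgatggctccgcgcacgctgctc

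In H2-Aa the X box core began at -81 and the Y box at -51 from the start site, and in H2-Eb1 at -91 and -62, so the first bases of the motifs lay 30 and 29 bases apart on the same strand. Of all 32851 listed promoters, 35.2% held GCAAC and 4.1% held CTGATTGG on either strand, and 22 (0.067%) held both on 1 strand at 25 to 35 bases. That spacing range was set after the H2-Aa and H2-Eb1 spacings had been seen. The class II genes H2-Oa and H2-Eb2 were also among the 22. H2-K1 held GGGATTCCC at -110 and TTTCACTTC, the reverse complement of a GAANNGAAA match, at -90. H2-D1 held the same 2 motifs at -170 and -150, again 20 bases apart. GGGATTCCC stood in 116 of the 32851 promoters (0.353%), among them both listed H2-K1 start sites, H2-D1, H2-Q6 and H2-Q7, whereas GAANNGAAA stood in 7.52%. CTGATTGG contains the reverse complement of CCAAT, which 37.4% of promoters held. CTGATTGG was also matched on the opposite strand in H2-K1, H2-D1 and Tap1. Tap1 held no GGGATTCCC or GAANNGAAA in its window.

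After 6 hours of cold 4 of the 4 class I genes were lower than at room temperature in edgeR's quasi-likelihood test, as were 4 of 4 after 1 day. With all 7 groups in one fit, H2-D1 (adjusted p = 0.058) and B2m (0.142) were not called at 6 hours, and the 4 genes were called at 1 day. Tap1, the transporter subunit, showed the largest change of the 10 genes at 6 hours. It measured 7.90, 7.94, 8.05, 7.06 and 12.1 CPM in the 5 control mice and 1.83, 1.85, 2.68, 2.12 and 1.11 CPM after 6 hours. Every mouse at 6 hours was below every control. The log2 fold change was -2.19 ± 0.26 (SE, n = 5 per group, edgeR adjusted p = 3.7e-06), that is 4.57-fold lower. After 1 day Tap1 stood at 2.97, 1.83, 0.895, 7.66 and 2.99 CPM, and 4 of the 5 mice were below all controls. The log2 fold change was -1.46 ± 0.37 (edgeR adjusted p = 0.0055), and in its exact permutation test p was 0.0159, where 0.00794 is the smallest p that 5 against 5 mice allow.

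H2-K1, a heavy chain, measured 191, 205, 202, 225 and 315 CPM in controls, 160, 137, 120, 131 and 150 CPM after 6 hours and 126, 124, 148, 138 and 138 CPM after 1 day. All 10 mice of the 2 cold groups were below all 5 controls. The log2 fold changes were -0.73 ± 0.13 at 6 hours (edgeR adjusted p = 2.4e-04) and -0.76 ± 0.13 at 1 day (edgeR adjusted p = 3.1e-04). The other heavy chain, H2-D1, stood at 170, 186, 165, 172 and 256 CPM in controls, 134, 131, 128, 129 and 147 CPM at 6 hours and 94.5, 111, 104, 117 and 122 CPM at 1 day. Again no cold mouse of these 2 groups reached the lowest control. Its log2 fold changes were -0.53 ± 0.12 (edgeR adjusted p = 0.0015) and -0.80 ± 0.13 (edgeR adjusted p = 1.5e-04). B2m, the shared light chain, measured 356, 336, 489, 397 and 597 CPM in controls, 345, 315, 316, 406 and 255 CPM at 6 hours and 210, 313, 274, 243 and 298 CPM at 1 day. At 6 hours 3 mice were below all controls and 2 overlapped them, while at 1 day all 5 were below. Its log2 fold changes were -0.43 ± 0.15 (edgeR adjusted p = 0.028) and -0.71 ± 0.16 (edgeR adjusted p = 0.0022). The 6-hour call of B2m was lost without room temperature replicate 3 or 5 or without cold 6 hours replicate 2, 3 or 5 (adjusted p up to 0.105).

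**Figure D1:**
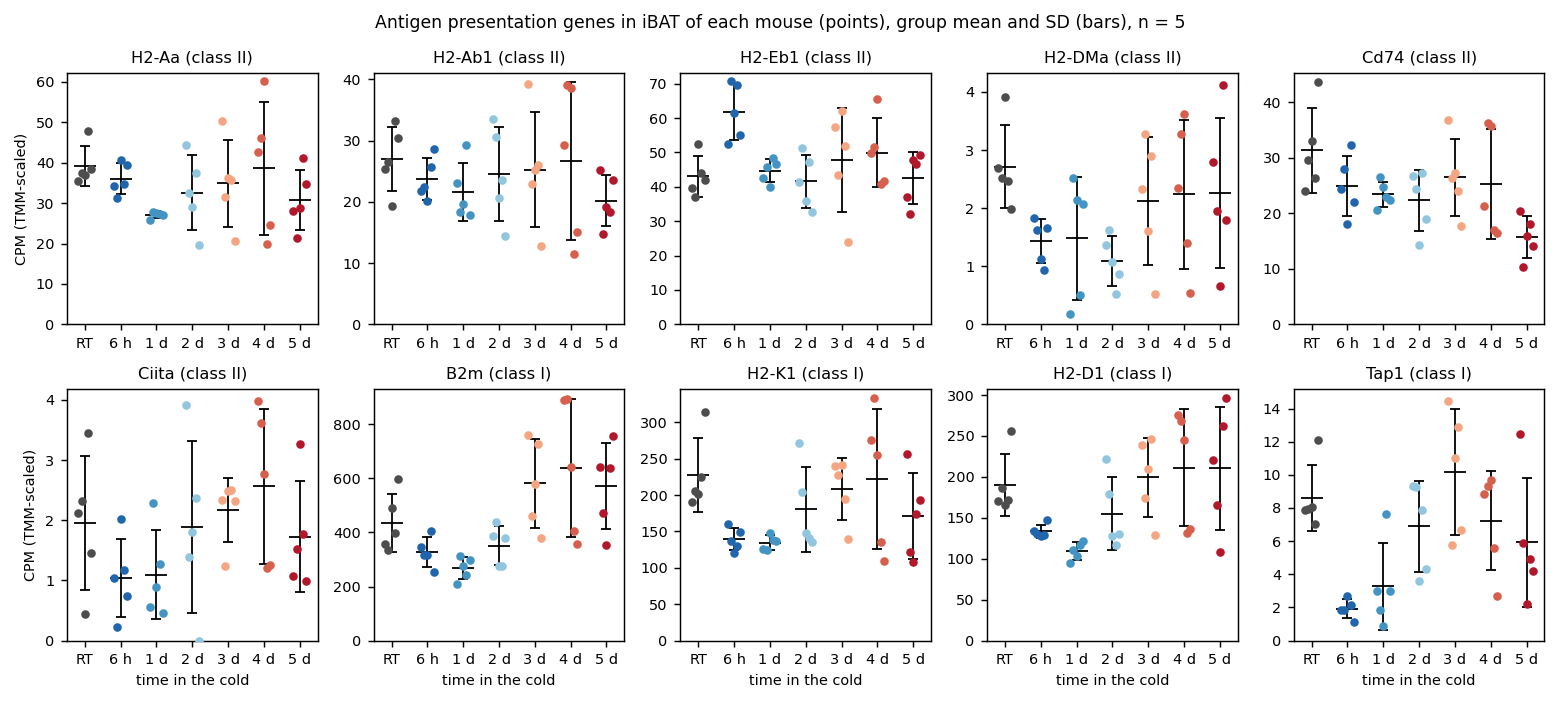
TMM-scaled CPM of the 10 genes in each of the 35 mice (points) by time in the cold, with room temperature as RT, and with the group mean and SD as bars (n = 5). Tap1 sits between 1.11 and 2.68 CPM after 6 hours and at 7.06 CPM or above in controls. From 2 days on the mice of a group lie further apart for H2-Aa and H2-D1.

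Over all members, 5 of the 9 genes tested after 6 hours were lower and 1 was higher, where 21% of all 10593 genes tested were called lower and 21.5% higher. Ciita did not pass the filter on low counts there. With scaling by library size only, which put the median of all genes at -0.21, 1342 genes were called higher and 3399 lower against 2280 and 2225 with TMM, and H2-Aa, H2-Ab1 and Cd74 joined the lower members (8 of 9). After 1 day 6 of 9 were lower and 0 were higher, against 17.8% and 18.9% of all genes, and the median log2 fold change of the 9 was -0.71 (all genes, -0.02). After 2 days only H2-DMa was called, 1 of 9 lower, against 14.7% of genes lower and 16.4% higher. The 4 class I genes were then between -0.30 and -0.35 in log2 fold change with none past the threshold, and edgeR adjusted p was 0.178 or above. Without cold 2 days replicate 1, which stood highest in 6 of the 10 genes, H2-K1, H2-D1 and Cd74 were also called lower (4 of 9).

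After 3 and 4 days no member differed from room temperature (0 of 10 each), against 18.3% of genes higher and 15.5% lower at 3 days and 19.4% and 18.6% at 4 days. At an unadjusted p under 0.05, edgeR had 1 of 10 at each of these times, B2m, with log2 fold changes of 0.43 ± 0.19 at 3 days and 0.55 ± 0.23 at 4 days (edgeR adjusted p = 0.095 and 0.076), and DESeq2 called 0 of 10 at both. Mean B2m was 582 ± 165 CPM (SD) at 3 days, 638 ± 256 CPM at 4 days and 572 ± 159 CPM at 5 days, against 435 ± 108 CPM in controls. Without room temperature replicate 5, B2m was called higher at each of 3, 4 and 5 days (edgeR adjusted p = 0.029, 0.034 and 0.028), as it was without cold 3 days replicate 5, cold 4 days replicate 4 or 5, or cold 5 days replicate 3 in those comparisons. After 5 days 2 of 9 members were lower (Cd74 and H2-Ab1) and 0 were higher, against 18.6% and 20.2% of all genes. Without cold 5 days replicate 1, H2-K1 and Tap1 were called lower too (4 of 9), and without room temperature replicate 1 only Cd74 was (1 of 9).

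The class I genes stood higher at 3 days than at 6 hours. This comparison, and that of 5 with 3 days, was chosen with earlier results of these data known. In the direct comparison of these 2 groups, 4 of 8 members tested were higher and 0 lower, against 17.3% and 15.3% of all genes, and the 4 were the 4 class I genes. Tap1 measured 14.5, 5.74, 11.03, 12.9 and 6.68 CPM at 3 days, each above every 6-hour mouse. Its log2 fold change was 2.44 ± 0.32 (edgeR adjusted p = 1.3e-05). B2m was 0.86 ± 0.17 higher on the log2 scale (edgeR adjusted p = 6.6e-04), H2-K1 0.61 ± 0.13 (edgeR adjusted p = 0.0018) and H2-D1 0.61 ± 0.14 (edgeR adjusted p = 0.0025). In each of these 3 genes 4 of the 5 mice at 3 days were above all mice at 6 hours. None of the 4 class II genes tested there passed (log2 fold changes from -0.34 to 0.12). Between 3 and 5 days 0 of 10 members were called, against 1.02% of genes higher and 0.892% lower. There edgeR gave 2 members at an unadjusted p under 0.05 (Cd74 and Tap1), and DESeq2 called Cd74 alone. Without cold 5 days replicate 1, edgeR called both lower. Cd74 came nearest in edgeR (log2 fold change -0.77 ± 0.20, adjusted p = 0.0504).

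Of the class II chain genes, none was called lower after 6 hours and only H2-Aa after 1 day. H2-Ab1 was called at 1 day as well with library size only (log2 fold change -0.54, edgeR adjusted p = 0.023), without room temperature replicate 3 (0.046) and without cold 1 day replicate 4 (0.033). H2-Aa, the alpha chain of H2-A, measured 35.5, 37.6, 37.0, 47.9 and 38.4 CPM in controls and 34.3, 31.2, 40.7, 34.7 and 39.4 CPM after 6 hours, and the groups overlapped. After 1 day it stood at 25.8, 27.9, 27.6, 27.3 and 27.1 CPM, below all controls and within a narrow range. The log2 fold change at 1 day was -0.54 ± 0.11 (edgeR adjusted p = 0.0011, and 0.051 with all 7 groups in one fit). From 2 to 5 days its means lay between 30.8 ± 7.4 and 38.7 ± 16.5 CPM (SD, n = 5) and it was not called. H2-Ab1, the beta chain of H2-A, had means between 20.2 ± 4.2 CPM at 5 days and 27.0 ± 5.3 CPM at room temperature, with 4 days (26.7 ± 12.9), 3 days (25.3 ± 9.4), 2 days (24.6 ± 7.7), 6 hours (23.7 ± 3.4) and 1 day (21.7 ± 4.8) between them. Neighbours in this order differed by less than 1 SD. It was called lower only after 5 days (25.1, 14.8, 19.2, 18.3 and 23.5 CPM against 25.4, 26.5, 19.4, 33.2 and 30.4 CPM in controls), with a log2 fold change of -0.43 ± 0.16 (edgeR adjusted p = 0.043). This call was lost without any of 7 of the 10 mice (room temperature replicates 1, 2, 4 and 5, cold 5 days replicates 2, 3 and 4), with adjusted p up to 0.127, and with all 7 groups in one fit (0.191).

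H2-Eb1, the beta chain of H2-E, was the only member called higher in any comparison with room temperature. It measured 39.5, 37.2, 52.4, 44.0 and 42.0 CPM in controls and 52.4, 70.7, 61.5, 69.6 and 55.1 CPM after 6 hours. In 4 of the 5 cold mice it was above all controls. The log2 fold change was 0.50 ± 0.12 (edgeR adjusted p = 0.0024) and was past the threshold without any single mouse. The exact permutation p was 0.0159 and, adjusted over the 17512 genes with at least 10 counts, 0.065. After 1 day H2-Eb1 was back at 44.6 ± 3.3 CPM, and no later group was called. C57BL/6 mice lack a working H2-E alpha chain, and the alpha pseudogene H2-Ea-ps had 0 counts in all 35 libraries.

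Cd74, the invariant chain (chr18:60803848-60812652, plus strand), had its lowest mean after 5 days. It measured 24.1, 29.6, 33.1, 26.4 and 43.6 CPM in controls and 20.4, 10.4, 15.9, 18.1 and 14.1 CPM at 5 days, with means of 31.4 ± 7.6 and 15.8 ± 3.8 CPM. All 5 mice at 5 days were below all controls. The log2 fold change was -1.0 ± 0.18 (edgeR adjusted p = 3.3e-04), a 2.00-fold lower level, and the exact permutation p was 0.00794. At 1 day its log2 fold change of -0.43 ± 0.15 was past the threshold (edgeR adjusted p = 0.040), but not without any of 7 of the 10 mice (room temperature replicates 2, 3 and 5, cold 1 day replicates 1, 3, 4 and 5), and not with all 7 groups in one fit (adjusted p = 0.126). H2-DMa, a chain of the peptide exchanger, measured 2.70, 2.52, 3.91, 2.46 and 1.99 CPM in controls, 1.83, 1.62, 1.12, 0.943 and 1.66 CPM after 6 hours and 1.36, 1.62, 1.08, 0.525 and 0.865 CPM after 2 days. All 10 of these cold mice were below all controls. Its log2 fold changes were -0.92 ± 0.33 (edgeR adjusted p = 0.031) and -1.26 ± 0.34 (edgeR adjusted p = 0.011). The 6-hour call was lost without room temperature replicate 1 or 3 or cold 6 hours replicate 2, 3 or 4, and in DESeq2 (adjusted p = 0.053). With all 7 groups in one fit neither call remained (adjusted p = 0.149 at 6 hours and 0.052 at 2 days). Ciita ranged from 0 to 3.97 CPM over the 35 mice, with group means from 1.04 ± 0.65 CPM at 6 hours to 2.56 ± 1.29 CPM at 4 days. It passed edgeR's filter only at 3 and 4 days and between 3 and 5 days, where it was not called. In the exact permutation test p was 0.214 or above against room temperature. At 3 days its mean was 2.17 ± 0.53 CPM, and 4 of the 5 mice were above all mice at 6 hours. The exact permutation p of 3 days against 6 hours was 0.0159 (adjusted 0.078), on few counts.

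**Figure D2:**
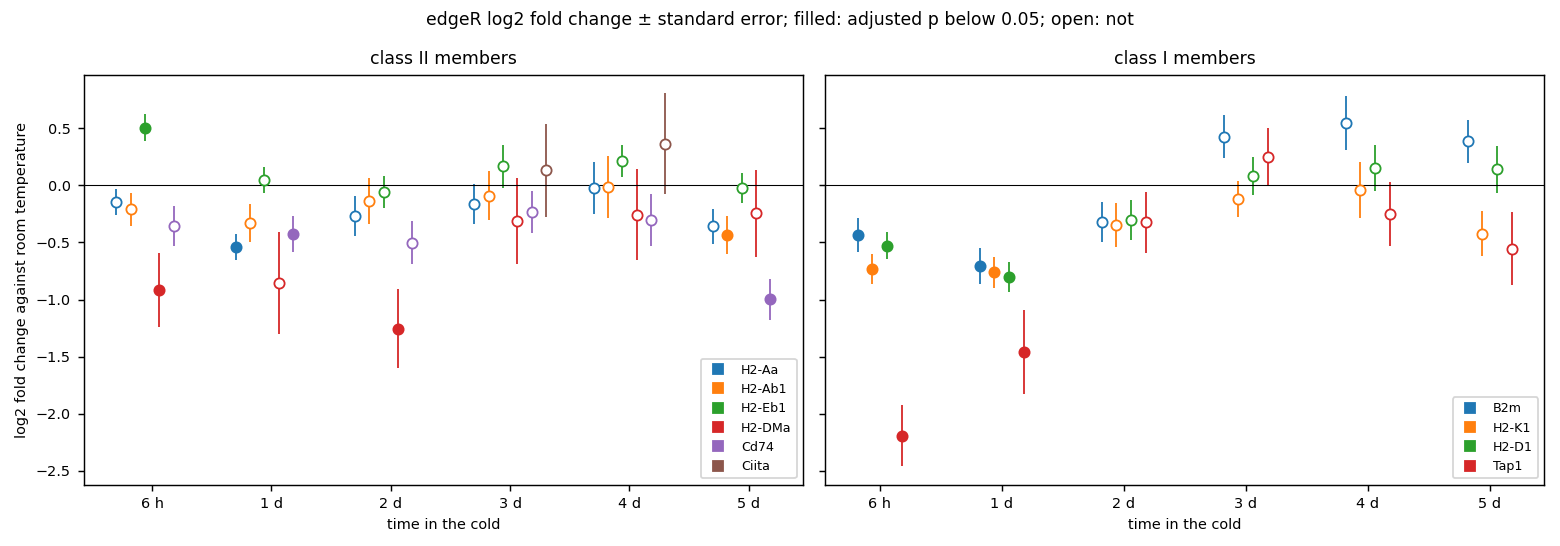
Log2 fold change of each gene against room temperature with its standard error (y axis) at the 6 durations (x axis), class II at left and class I at right, filled where edgeR's adjusted p was below 0.05. The 4 class I genes are filled at 6 hours and 1 day and open from 2 days on, and H2-Eb1 is the only filled point above 0.

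Tested over all 7 groups at once, 6 of the 10 genes differed, against 60.4% of the 12077 genes tested. These were the 4 class I genes with H2-Eb1 and Cd74 (edgeR adjusted p from 1.6e-05 for B2m to 0.030 for H2-Eb1). H2-Aa, H2-Ab1, H2-DMa and Ciita did not pass (adjusted p from 0.211 to 0.642). H2-Eb1 did not pass with scaling by library size only (adjusted p = 0.071).

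Other genes of the class I pathway were called in both directions at every duration except 3 days. Of 20 such genes 14 were tested after 6 hours, and 8 were lower (21% of all genes) and 3 higher (21.5% of all genes, a like share), with a median log2 fold change of -0.68 against -0.03 over all genes. The 8 included the immunoproteasome subunits Psmb9 (-1.62 ± 0.27, edgeR adjusted p = 1.0e-04) and Psmb8 (-1.34 ± 0.27, adjusted p = 7.4e-04), the tapasin relative Tapbpl (-0.95 ± 0.20, adjusted p = 9.8e-04) and the proteasome activator subunit Psme2 (-0.80 ± 0.17, adjusted p = 9.1e-04). Psmb9 shares exon bases with Tap1 on the opposite strand. The 3 called higher were the endoplasmic reticulum chaperones Calr, Canx and Pdia3, which serve many proteins besides class I (log2 fold changes 0.79 ± 0.11, 0.64 ± 0.09 and 0.52 ± 0.12). After 1 day 7 of 14 were lower (17.8% of all genes) and 3 higher (18.9%). Psmb9 (-1.92 ± 0.40), the peptide-trimming Erap1 (-1.72 ± 0.24), Psmb8 (-1.46 ± 0.32) and Psme1 (-1.31 ± 0.11) had the largest changes. After 2 days 5 of 14 were lower (14.7% of all genes) and 3 higher (16.4%), and after 3 days 5 of 15 were higher (18.3%) and 0 lower (15.5%). Those 5 were the nonclassical class I gene H2-T22 (1.01 ± 0.25), the partner transporter Tap2 (0.82 ± 0.16), Calr, Canx and Pdia3. At 4 days 4 were higher (19.4% of all genes) and 3 lower (18.6%), and at 5 days 2 (20.2%) and 2 (18.6%) of 15.

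From 6 hours to 3 days 7 of 14 of these genes rose and 0 fell (17.3% and 15.3% of all genes), led by Psmb9 (1.75 ± 0.25, edgeR adjusted p = 2.9e-05), Psmb8 (1.36 ± 0.33), H2-T22 (1.22 ± 0.23) and Tap2 (1.16 ± 0.15). Tap2 then fell between 3 and 5 days (-0.92 ± 0.17, edgeR adjusted p = 0.011), 1 of 2 genes of the list lower there with Pdia3.

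Of 10 genes of interferon gamma signalling, 4 of 9 tested were lower and 0 higher after 6 hours (21% and 21.5% of all genes). They were the transcription factors Irf1 (-0.90 ± 0.13, edgeR adjusted p = 2.5e-05) and Irf2 (-0.59 ± 0.12) and the receptor chains Ifngr1 (-0.54 ± 0.11) and Ifngr2 (-0.79 ± 0.30). After 1 day 4 of 8 were lower (17.8% of all genes) and 0 higher (18.9%). Irf1 (-0.75 ± 0.23), Irf2 (-0.72 ± 0.12) and Ifngr1 (-0.52 ± 0.11) were among the lower ones. After 3 days 3 of 9 were higher (18.3% of all genes), among them Irf8 (1.39 ± 0.30) and Jak1 (0.39 ± 0.11). Ifngr1 (-0.43 ± 0.13) was the 1 gene lower (15.5% of all genes). Ifngr1 was called lower in each of the 6 comparisons with room temperature, reaching -0.98 ± 0.12 after 5 days (edgeR adjusted p = 5.95e-06). From 6 hours to 3 days 4 of 9 rose (17.3% of all genes) and 0 fell (15.3%). The log2 fold changes were 1.54 for Irf8, 1.08 for Irf1 and 0.36 for Irf2.

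Of 15 other class II pathway genes 8 were tested in each comparison, and those that rose against room temperature were lysosomal or endosomal enzymes. Ctsl, a cathepsin, was higher after 6 hours (0.38 ± 0.10, 1 of 8, against 21.5% of all genes). Ifi30, a thiol reductase, was higher after 1 day (0.96 ± 0.24, 1 of 8, against 18.9%). From 2 to 5 days Ifi30, Ctsl, cathepsin S (Ctss) and legumain (Lgmn) were called higher at every duration, 4 of 8 each. Of all genes tested, 16.4% to 20.2% were higher at these durations. Ctss, which also cuts Cd74, had the largest log2 fold change at 2, 3, 4 and 5 days (2.72 ± 0.45 at 3 days, edgeR adjusted p = 2.2e-04). These proteases also serve general lysosomal breakdown. Rfx5, which binds the X box, was lower at 2 days (-0.84 ± 0.27) and 5 days (-0.83 ± 0.27). That was 1 of 8 tested each time, against 14.7% and 18.6% of all genes lower. The summed level of the 15 genes had a mean of 125 ± 10.7 CPM in controls and 265 ± 83.9 CPM at 3 days. Ctsl gave 67.2 CPM of the control mean, and Ctss went from 14.9 ± 9.2 CPM in controls to 97.9 ± 65.2 CPM at 3 days. The sum is thus mainly one of proteases and not a level of class II molecules.

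Markers of the cells that could carry these transcripts were read beside them. Of all genes tested, 21.5%, 18.9%, 16.4%, 18.3%, 19.4% and 20.2% were higher than at room temperature at the 6 durations in turn. The shares lower were 21%, 17.8%, 14.7%, 15.5%, 18.6% and 18.6%. Ptprc, the leukocyte gene CD45, was called lower after 6 hours (4.32 ± 2.43 against 8.28 ± 4.58 CPM, edgeR adjusted p = 0.038). It measured 5.78, 6.78, 5.00, 7.55 and 16.3 CPM in controls and 7.86, 5.54, 1.57, 3.30 and 3.33 CPM at 6 hours. The groups thus overlapped, room temperature replicate 5 stood far above the other controls, and no fit without single mice was run for Ptprc. It was higher at 3 days than at 6 hours (log2 fold change 1.77 ± 0.38, edgeR adjusted p = 0.0014). Of 9 macrophage markers 7, 7, 7, 8, 8 and 8 were tested against room temperature at the 6 durations in turn. Of those tested 1, 0, 1, 3, 4 and 3 were higher and 0 lower. The summed level of all 9 was 92.5 to 115 CPM at 6 hours, 78.6 to 190 CPM in controls and 140 to 314 CPM at 3 days. Of 6 genes of the study's resident macrophages 5, 5, 5, 6, 6 and 6 were tested, and 0, 1, 1, 4, 2 and 3 were higher and 0, 1, 0, 0, 0 and 0 lower. Of 5 genes of its lipid-handling macrophages 2 were tested after 6 hours (1 lower) and 1 day (1 higher), and those tested at 2, 3, 4 and 5 days were called higher (2 of 2, 3 of 3, 2 of 2 and 3 of 3). The study chose both sets from its own tissue, so they are not independent evidence. It also named Lgals3, Gpnmb and Trem2 for their delayed rise in these same libraries. Their calls at the later durations therefore add no new evidence.

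Of 12 dendritic cell markers 4 were tested against room temperature, and 1, 2, 1, 0, 1 and 2 were lower and 0, 1, 0, 0, 0 and 0 higher. Of all genes tested, 14.7% to 21% were lower and 16.4% to 21.5% higher at these durations. With so few markers tested, these counts are not read as a result about dendritic cells. The 4 tested were Zbtb46, Irf4, Naaa and Clec10a. The 8 that did not pass the filter were not tested, and some of them stood higher in mean level, among them Itgax with 0.455 CPM in controls and 1.56, 1.91 and 1.73 CPM at 2, 3 and 4 days, Ccr7 with 0.197 and 1.18 CPM at room temperature and 2 days, and Xcr1 with 0.184 and 0.596 CPM. The summed level of all 12 was 36.3 to 75.3 CPM in controls, 35.1 to 49.5 CPM at 6 hours and 37.0 to 47.4 CPM at 3 days. At 5 days it was 29.4 to 47.7 CPM. Most of this sum came from Irf4 (16.1 ± 15.6 CPM in controls, SD), Zbtb46 (11.5), Naaa (9.24) and Clec10a (8.40). It therefore says little about the other 8 markers. Of the 12, Flt3, Clec9a and Cd209a had the most libraries with 0 counts (15, 14 and 13 of 35). Xcr1, Ccr7 and Siglech each had 9 such libraries, and Itgax, Batf3 and Zbtb46 had 0. Mean Flt3 was 0.454 ± 0.736 CPM (SD) in controls, 0.846 ± 1.19 CPM at 2 days and 0.798 ± 0.449 CPM at 3 days, on few counts. At 5 days it was 0.289 ± 0.335 CPM, and it was also below controls at 6 hours and 1 day. The B cell gene Cd79a had 2 counts in all and 0 in 34 libraries, and the summed level of the 8 B cell markers was 2.67 to 22.7 CPM. Ighm was the B cell marker called higher after 4 and 5 days (1 of 1 tested each, log2 fold changes 0.86 and 1.36). The 8 T cell markers summed to 0.707 to 10.9 CPM and 0 were tested. Of 6 endothelial markers 2, 5, 4, 3, 3 and 0 were higher and 1, 0, 1, 0, 1 and 1 lower at the 6 durations. The part of these cell types in the member genes' changes was not tested.

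Averaged over durations, the mice of a group differed from each other more from 2 days on than before in the members other than Ciita. The mean within-group SD of log2 CPM of H2-Aa was 0.12 over room temperature, 6 hours and 1 day and 0.48 over 2 to 5 days, 3.9 times as large. The same ratio was 2.90 for H2-D1, 2.67 for H2-K1, 2.08 for H2-Eb1, 2.04 for H2-Ab1, 1.64 for B2m, 1.61 for Cd74, 1.30 for H2-DMa, 1.26 for Tap1 and 0.99 for Ciita, against a median of 1.07 over 12077 genes. These ratios are a description with no test. Single durations did not all follow the averages. The SD of B2m was 0.31 at 2 days and 0.34 at room temperature. For Tap1 it was 0.96 at 1 day and 0.56 to 0.84 from 2 to 5 days. Cold 3 days replicate 5 had the lowest level of its group in 8 of 10 genes. Cold 4 days replicates 4 and 5 had it in 5 genes each, a count also seen in cold 1 day replicate 1. H2-Ab1 at 4 days was 29.3, 39.1, 38.5, 11.4 and 15.1 CPM, and H2-K1 in the same mice was 276, 334, 255, 136 and 109 CPM. Replicates 4 and 5 were below the other 3 in both genes.

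When all 35 mice were pooled, most of the other members were high within durations in the mice in which H2-Ab1 was high. This held in the 20 mice of 2 to 5 days, and no relation passed in the 15 mice of room temperature and the first day. After each mouse's log2 CPM was set against its group mean, H2-Aa had a Pearson r of 0.84 with H2-Ab1 over 35 mice (rho 0.69, permutation p within durations, adjusted over 16 relations, 3.2e-04 for r and 0.0014 for rho). H2-K1 had r = 0.78 (rho 0.75, permutation adjusted p = 3.2e-04 and 6.4e-04), H2-D1 0.69 (rho 0.67), Cd74 0.67 (rho 0.57), H2-Eb1 0.61 (rho 0.52), Tap1 0.55 (rho 0.62) and B2m 0.55 (rho 0.45), each past 0.05 after adjustment for r and rho. Ciita (r = 0.45) passed for r and not for rho (adjusted p = 0.054), and H2-DMa (r = 0.32) did not pass. When the 2 mice with the most extreme H2-Ab1 values were dropped, the r values of the 8 genes that passed for r were 0.43 to 0.77.

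Outside the members, Gpnmb, a gene of lipid-handling macrophages, had r = 0.73 with H2-Ab1 (rho 0.72, permutation adjusted p = 0.0013), and the proliferation gene Top2a 0.55 (rho 0.61, adjusted p = 0.0053). The dendritic cell gene Flt3 had r = 0.59 and Cd209a 0.43, both past 0.05 and both resting on few counts. The macrophage gene Mrc1 (r = 0.11) and the T cell gene Cd3e (r = 0.14) did not pass. The relations did not hold in the 15 mice of room temperature, 6 hours and 1 day, where r lay between -0.60 and 0.36 and the lowest adjusted p was 0.399. In the 20 mice of 2 to 5 days r was 0.91 for H2-Aa, 0.84 for H2-K1, 0.83 for Cd74 and 0.79 for Gpnmb. The difference between the early and late values was not tested.

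**Figure D3:**
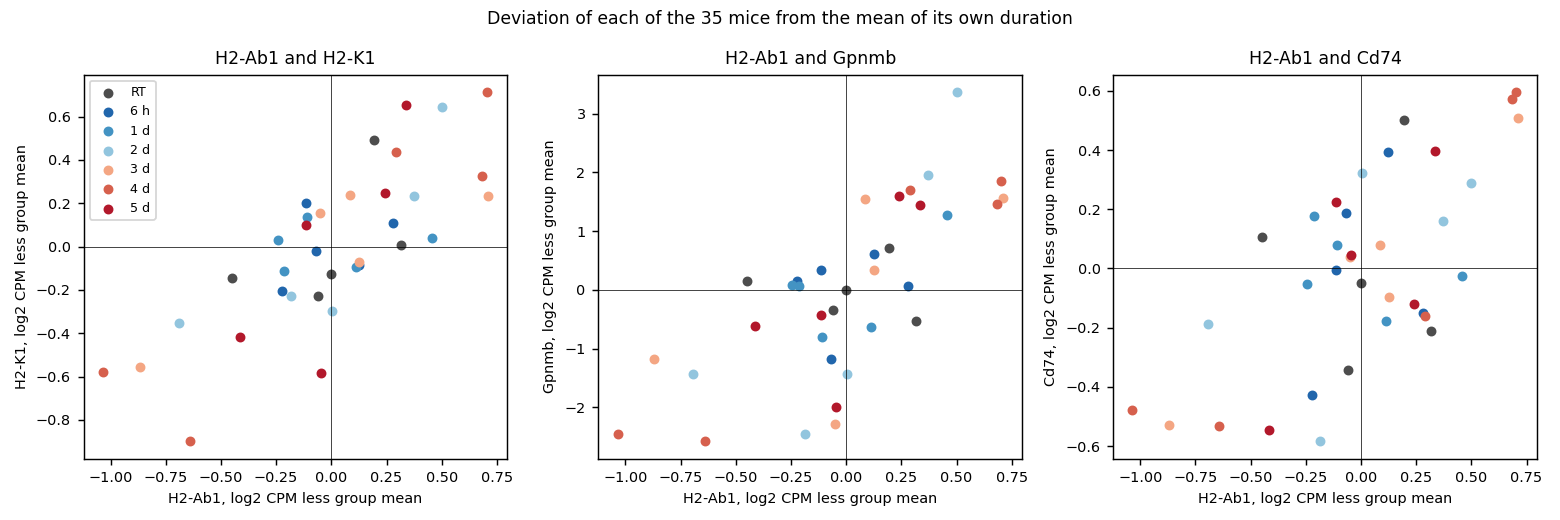
Each of the 35 mice as its deviation from the mean of its own duration in log2 CPM, with H2-Ab1 on the x axis and H2-K1, Gpnmb or Cd74 on the y axis, coloured by duration. Cold 4 days replicates 4 and 5 and cold 3 days replicate 5 lie low on both axes, and cold 4 days replicates 1, 2 and 3 lie high for H2-K1 and Gpnmb, while mice of the first day lie nearer the centre.

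Outside the members, the 5 genes whose within-duration deviations were most like those of H2-Ab1, among 10648 genes with a mean of at least 10 counts, were Dock10 (r = 0.81), Irf8 (0.81), Selplg (0.78), Sdc3 (0.78) and Ptafr (0.78). For H2-K1 they were H2-Q7 (0.88), Ctss (0.87), Irf8 (0.86), Cybb (0.84) and Samhd1 (0.84). Irf8, a transcription factor of myeloid cells, was in both sets, with a mean of 8.14 ± 2.80 CPM in controls and 21.2 ± 10.3 CPM at 3 days. These r values were picked as the largest of many and carry no test.

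Ratios between 2 members within a mouse were compared as differences of log2 CPM with a prior count of 2, which raises low values such as those of Tap1, so the ratios are less extreme than those of the plain CPM. They were chosen after the values had been seen, over 32 comparisons, and only their change between groups is read. The log2 ratio of H2-Eb1 to H2-Aa was 0.15, -0.01, 0.50, -0.12 and 0.13 in controls and 0.71, 0.70, 0.53, 0.81 and 0.77 after 1 day, above all controls in 5 of 5 mice. It rose by 0.58 at 1 day (exact permutation p = 0.00794, adjusted 0.051) and differed by 0.64 at 6 hours (exact p = 0.0159, adjusted 0.085). The log2 ratio of H2-K1 to H2-Aa was 0.57 lower at 6 hours, below all controls in 5 of 5 mice (exact p = 0.00794, adjusted 0.051), and 0.66 higher at 3 days than at 6 hours (exact p = 0.00794, adjusted 0.051). The log2 ratio of Tap1 to H2-K1 was -6.16, -5.93, -5.29, -5.69 and -6.63 at 6 hours against -4.52, -4.62, -4.58, -4.92 and -4.65 in controls, all 5 below. It was 1.28 lower at 6 hours and 1.58 higher at 3 days than at 6 hours (exact p = 0.00794, adjusted 0.051, for both). Each of these p-values is the smallest that 5 against 5 mice can give except that for 6 hours in H2-Eb1 to H2-Aa, and after adjustment none was past 0.05.

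**Figure D4:**
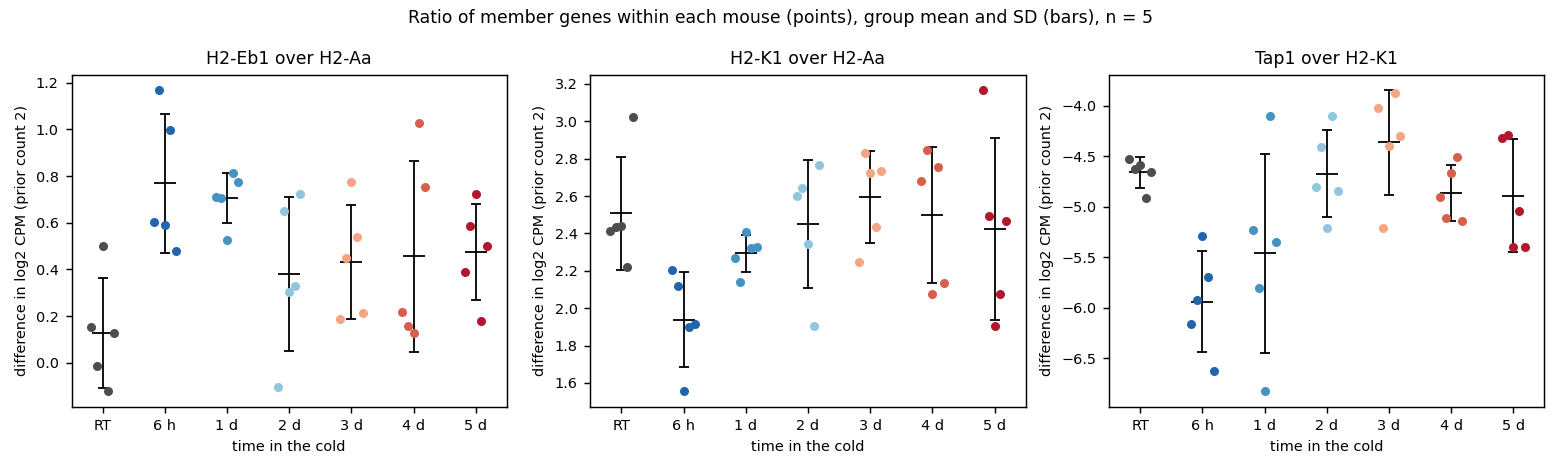
Difference in log2 CPM (prior count 2) between 2 member genes within each mouse (points) by time in the cold, with the group mean and SD as bars (n = 5), for H2-Eb1 over H2-Aa, H2-K1 over H2-Aa and Tap1 over H2-K1. The ratio of Tap1 to H2-K1 lies between -6.63 and -5.29 after 6 hours and between -4.92 and -4.52 in controls.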

How the data were processed

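QuantSeq 3′ FWD libraries of iBAT from 35 mice were sequenced as 76-base reads. The authors aligned the reads with STAR 2.6.1d and counted them per gene with HTSeq 0.11.2 on the Ensembl annotation of GRCm38, and the table they deposited holds whole-number counts without normalization. The 10 members, all gene lists and the 2 comparisons between cold durations were chosen with earlier results of these data known. Each duration was compared with the controls in its own fit in edgeR 4.0.16 (R 4.3.3), with TMM scaling, filterByExpr, the quasi-likelihood test and p-values adjusted by Benjamini-Hochberg across every gene tested (threshold 0.05). The SE of a log2 fold change is its size divided by the square root of the F statistic. Exact two-sided permutation tests over 252 splits used log2 CPM (prior count 2). Their p-values were adjusted over all genes with at least 10 counts in the 10 mice and not over the members alone, as first designed. Relations within durations used 100000 permutations (Python 3.11.15, numpy 2.4.6, scipy 1.17.1). Replicate numbers only name mice, and 267 identifiers had no gene symbol. Genes named are the members, called genes of the pathway lists (at most the 4 largest changes per list and comparison), marker lists as counts and ranges, and the 5 nearest genes to H2-Ab1 and H2-K1, with Ptprc. Other genes of a list are named where few were called, as chosen after their values were seen. The pairwise edgeR and DESeq2 fits were checked on simulated counts, and the relations within durations on simulated normal values. The exact tests and the test over 7 groups had no such check. In the simulated counts, the recovery required of genes with the smaller change was lowered after the result had been seen. Alternatives were DESeq2 1.42.0, RLE factors, library size only, no filter, all 7 groups in one fit, no mitochondrial genes, the replicate number as a block, and fits without each mouse in turn. They were recomputed for single genes with an unadjusted p under 0.1, a limit set after the values had been seen. 3′ end windows were compared with blastn 2.17.0. The ratios within a mouse and the spacing range of the promoter motifs were chosen after values had been seen.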

Additional observations from a re-analysis of the deposited data

Results flagged for a closer look

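In 4 of the 70 sets of 5 mice (10 genes in 7 groups) 1 mouse stood apart from the other 4 by Dixon's criterion (critical value 0.71), where chance gives about 1 in 20 sets. H2-Aa in room temperature replicate 4 was 47.9 CPM (others 35.5 to 38.4). In room temperature replicate 5, H2-D1 was 256 CPM (others 165 to 186) and Tap1 12.1 CPM (others 7.06 to 8.05). Ciita in cold 3 days replicate 2 was 1.23 CPM, where its counts are few (others 2.31 to 2.50). Without room temperature replicate 5 the calls of H2-D1 and Tap1 at 6 hours and 1 day remained.

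The 4 class I genes changed differently at 3 days and at 6 hours against the same controls, tested directly as 3 days against 6 hours. The log2 differences were 2.44 for Tap1, 0.86 for B2m, 0.61 for H2-K1 and 0.61 for H2-D1, each past edgeR's adjusted threshold. None of them passed the exact permutation test after adjustment. Ptprc moved with them (1.77). Whether the number of leukocytes has a part in this was not tested.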

How the results depend on the processing

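Of the members called against room temperature or between durations, every call kept its direction under the alternatives run. With scaling by library size only, the median log2 fold change of all genes moved to between -0.15 and -0.25 at the 6 durations, the members called lower became 8 at 6 hours, 7 at 1 day, 3 at 2 days and 4 at 5 days, and the exact test had 8 members at an unadjusted p under 0.05 at 6 hours and 3 at 2 days. Over all genes the higher and lower calls then became 1140 and 3218 at 1 day, 931 and 2776 at 2 days, 1339 and 2430 at 3 days, 1440 and 2670 at 4 days, 1194 and 3347 at 5 days, and 1945 and 1239 for 3 days against 6 hours. With all 7 groups in one fit the counts of members were 2 lower at 6 hours, 0 lower at 2 days, 1 higher at 4 days and 1 lower at 5 days. Of 12077 genes that fit called 2089 lower at 6 hours, 1635 lower at 2 days, 2222 higher at 4 days and 2086 lower at 5 days. Without the filter on low counts 1 member was higher at 3, 4 and 5 days each, 1 was lower at 3 days against 6 hours and 2 at 5 against 3 days. Over all genes the higher calls were then 2190 of 27503, 2495 of 27439 and 2469 of 27130 at 3, 4 and 5 days. The lower calls were 1631 of 26203 at 3 days against 6 hours and 385 of 24759 at 5 against 3 days. DESeq2 and the fit without mitochondrial genes and Gm42418 each called 1 member lower at 5 against 3 days. Over all genes they called 239 of 10540 and 103 of 10578 lower there. The cause of these shifts was not tested.

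The replicate numbers did not pair the mice (correlation of same-numbered deviations from -0.188 to 0.158). With the replicate block 4 members were lower at 5 days, H2-Aa and H2-K1 joining, against 1917 of 10733 genes. Leaving out each mouse gave 3 to 5 lower and 1 higher at 6 hours, 5 to 6 lower at 1 day, 1 to 4 lower at 2 days, 0 to 1 higher at 3, 4 and 5 days, 1 to 4 lower at 5 days, 4 higher at 3 days against 6 hours and 0 to 2 lower at 5 against 3 days.

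In the 15 mice of room temperature, 6 hours and 1 day alone, r with H2-Ab1 was 0.30 for H2-Aa, -0.16 for H2-Eb1, -0.60 for H2-DMa, 0.031 for Cd74, 0.30 for Ciita, -0.30 for B2m, 0.36 for H2-K1, 0.30 for H2-D1, 0.34 for Tap1, 0.26 for Top2a, 0.27 for Gpnmb, -0.46 for Mrc1, -0.0080 for Flt3, 0.023 for Cd209a and -0.035 for Cd3e, and 0 of 15 passed after adjustment. In the 20 mice of 2 to 5 days H2-DMa passed with r = 0.62. Ciita, H2-DMa and Tap1 are limited by depth.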
